A study of Homo sapiens and Mus musculus with 4 samples.

Results

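The genes described here are 10 transcription factor genes of the ETS family, namely ETS1, ETS2, FLI1, ERG, ELF1, ELF4, SPI1, SPIB, ETV6 and GABPA. Each symbol was read as the human gene in the human lines and as the mouse gene of the same symbol in the mouse lines, which gave 10 of 32738 human genes and 10 of 27998 mouse genes in the table, 20 of 60736 in all. They were measured by bulk RNA-seq of stranded mRNA libraries in 4 cell lines bought from a culture collection, with 1 library per line and no replicate. Of the human lines, Jurkat derives from a T-cell leukaemia and was taken as a CD4 T cell, and TALL104, kept in interleukin-2, derives from a T-cell leukaemia and was taken as a CD8 T cell. Of the mouse lines, EL4, kept in 2-mercaptoethanol, is a lymphoma taken as a CD4 T cell, and IVA12 is a hybridoma taken as a B cell. The labels give the name of the line and no allele or treatment. Each line had its own medium, so line and medium cannot be told apart.

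ETS factors share a winged helix-turn-helix domain that binds DNA at a GGAA core, and outside this domain they differ in partners and in whether they activate or repress. In lymphocytes the family is used at every stage, and T cells are known for ETS1, FLI1, ELF1, ELF4 and the GABP complex. The SPI branch sets lineage, since PU.1 (encoded by SPI1) drives myeloid and B-cell development and is shut off in committing T cells, while Spi-B is a close relative used in B cells and plasmacytoid dendritic cells.

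Levels are given as FPKM (fragments scaled to the length of the gene and to the depth of the library), a unit that is per length and so allows the genes of one library to be ranked. Whole reads were recovered from the FPKM, and the brackets after a level or ratio hold its 95% interval for the counting of these reads. The intervals cover counting error only, because reads are not independent molecules and no second culture was measured. The read totals by which the FPKM were scaled were recovered as 25286728 to 34783047, of which 19806 to 58393 reads lay on the 10 ETS genes. These totals are not the sequenced depth of the libraries.

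The line labels were checked against marker genes. The 5 T-cell markers CD3D, CD3E, CD3G, CD2 and CD5 lay between 12.5 and 400.1 FPKM in Jurkat and TALL104 and between 17.8 and 197 in EL4. In IVA12, Cd2 had 9.99 FPKM and the other T-cell markers had at most 1.15. Of the 5 B-lineage markers, 4 were high in IVA12, from 46.5 FPKM for Ms4a1 to 1289 for Jchain, but Cd79a was at 2 reads there. The IVA12 label of a B-lineage hybridoma therefore rested on Ms4a1, Cd79b, Mzb1 and Jchain, and these data hold almost no Cd79a. Some of these markers were also seen in the human T-cell lines, with MZB1 at 47.7 FPKM in Jurkat and 8.88 in TALL104, CD79A at 16.5 and 24.6, and CD79B at 4.7999 in TALL104.

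Across the 10 genes, 7 reached 1 FPKM in Jurkat and 7 in TALL104, against 33.2% and 33.1% of all human genes. In EL4 and in IVA12, 9 of the 10 reached 1 FPKM, against 34.3% and 35.0% of all mouse genes. ETS1, ETS2, FLI1, ELF1, ELF4, ETV6 and GABPA passed this level in all 4 lines. The genes that did not were those of the SPI branch and ERG. Of these, SPI1 passed it in IVA12 alone, and ERG in EL4 alone, at 1.05 FPKM with an interval of 0.868 to 1.26. SPIB passed it in both mouse lines and in neither human line, and gene models differ between the species.

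**Figure D1:**
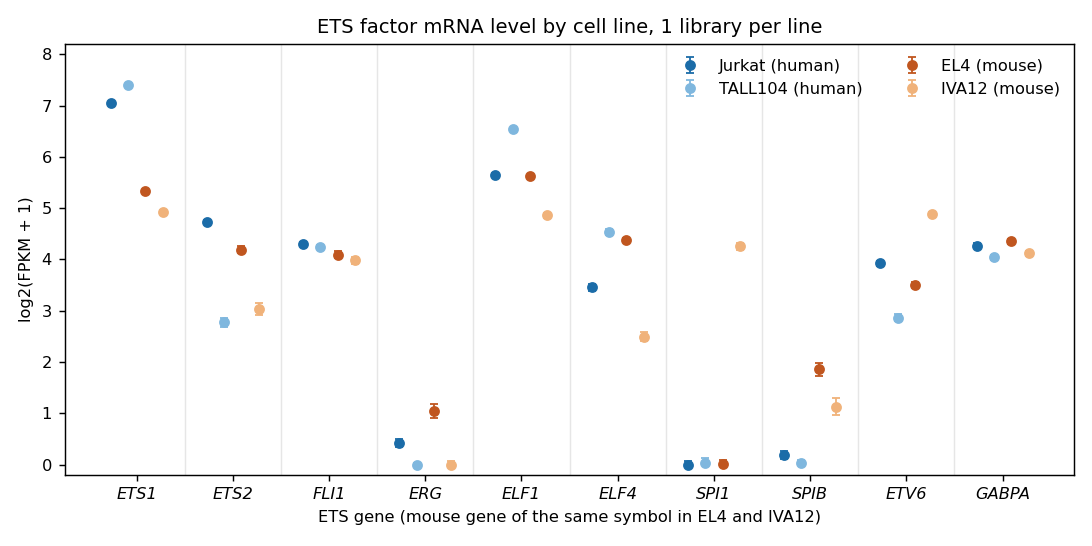
Level of each ETS gene as log2(FPKM + 1) in the 4 cell lines, with 1 point per library and bars for the 95% counting interval. FLI1 and GABPA sit at nearly one height in every line, while SPI1 stands at 18.0 FPKM in IVA12 and at no more than 1 read in the other lines. Gene models differ between the species, which limits the reading of heights across them.

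SPI1 encodes PU.1, and its human gene (ENSG00000066336, hg19 chromosome 11, 47376411 to 47400098, minus strand) was listed at 0 in Jurkat and at 0.0171 FPKM, or 1 read, in TALL104. Mouse Spi1 (ENSMUSG00000002111, mm10 chromosome 2, 91082390 to 91115756, plus strand) had 0.0115 FPKM, again 1 read, in EL4. In IVA12 it had 18.0 FPKM (17.1 to 19.1) from 1230 reads. The T-cell lines thus held at most 1 read of SPI1, and in IVA12 only Ets1, Etv6 and Elf1 of the 10 genes were higher. The FPKM ratio of IVA12 over EL4 was 1564 (280.2 to 61817), a wide interval because EL4 had a single read.

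SPIB had a low level in every line. The human gene shares 839 exon bases with ENSG00000142539 on the same strand, a gene listed at 0 in both human lines, so its reads there cannot be assigned with certainty. Human SPIB (ENSG00000269404, hg19 chromosome 19, 50922195 to 50934571) stood at 0.134 FPKM (0.0820 to 0.207, 20 reads) in Jurkat and at 0.0165 (2 reads) in TALL104. Mouse Spib (ENSMUSG00000008193, mm10 chromosome 7, 44525993 to 44532071) stood at 2.61 FPKM (2.29 to 2.97) in EL4 and at 1.19 (0.949 to 1.46) in IVA12. Mouse Spib was therefore the higher in the T-cell line, by a ratio of 2.20 (1.72 to 2.85), the direction opposite to that of Spi1. Both SPI genes together held 13.0% of the summed FPKM of the 10 genes in IVA12. In the T-cell lines their part was 0.0502% (Jurkat), 0.0102% (TALL104) and 1.51% (EL4).

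ERG, a factor of blood stem cells and endothelium, was the other gene that was absent in part. Human ERG (ENSG00000157554, hg19 chromosome 21, 39751949 to 40033704) had 0.334 FPKM in Jurkat (0.270 to 0.409, 93 reads) and was listed at 0 in TALL104. Mouse Erg (ENSMUSG00000040732, mm10 chromosome 16, 95359169 to 95586593) had 117 reads and 1.05 FPKM (0.868 to 1.26) in EL4 and no read in IVA12. Against the level that 3 reads per library would give, the line with ERG was at least 25.3-fold higher in the human pair and at least 30.7-fold higher in the mouse pair. Both levels were low. The endothelial markers CDH5, KDR and TEK together had at most 0.0426 FPKM in any line.

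FLI1, the closest relative of ERG, behaved in the opposite way and was even within each pair of lines. Human FLI1 (ENSG00000151702, hg19 chromosome 11, 128556430 to 128683162) stood at 18.7 FPKM (18.2 to 19.2) in Jurkat and at 17.9 (17.4 to 18.5) in TALL104. Mouse Fli1 (ENSMUSG00000016087, mm10 chromosome 9, 32422204 to 32542861) stood at 16.0 FPKM (15.3 to 16.8) in EL4 and at 14.8 (14.001 to 15.6) in IVA12. The ratios were 1.04 (1.0019 to 1.09) for Jurkat over TALL104 and 1.08 (1.01 to 1.17) for EL4 over IVA12. The human direction was not stable, as the log2 ratio of FPKM + 1 of 0.06 turned to -0.05 with the libraries scaled by their median ratio and was also below 0 without mitochondrially encoded genes.

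GABPA encodes the DNA-binding subunit of GABP, which works as a complex with GABPB1 or GABPB2. Human GABPA (ENSG00000154727, hg19 chromosome 21, 27106881 to 27144771) stood at 18.3 FPKM (17.7 to 18.9) in Jurkat and at 15.4 (14.8 to 16.1) in TALL104. Mouse Gabpa (ENSMUSG00000008976, mm10 chromosome 16, 84834925 to 84863779) stood at 19.4 FPKM (18.8 to 20.1) in EL4 and at 16.3 (15.7 to 17.0) in IVA12. The ratio was 1.19 in both pairs, with intervals of 1.12 to 1.25 in the human and 1.13 to 1.25 in the mouse pair. FLI1 and GABPA had the smallest spread of the 10 genes over the 4 lines, with a range of log2(FPKM + 1) of 0.32 and 0.31, against 4.25 for SPI1. These ranges span both species, whose gene models differ, with a length of 8479 bases for human FLI1 and 3486 for mouse Fli1. GABPA lies head to head with ATP5PF (Atp5j in mouse), and 692 of its exon bases in human and 397 in mouse overlap that gene on the other strand. Since a strand setting of the counting is not given in the sources used here, reads of that stretch cannot be assigned with certainty.

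The 2 subunits that pair with GABPA were near its level or below it. GABPB1 had 13.5 FPKM in Jurkat and 7.73 in TALL104, and Gabpb1 had 8.15 in EL4 and 6.78 in IVA12. GABPB2 had 4.64 and 5.48 FPKM in the human lines, and Gabpb2 had 15.2 and 12.9 in the mouse lines. GABPB1 was thus the higher of both subunits in the human lines, and Gabpb2 the higher in the mouse lines.

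Forms of the ETS binding site were sought in the promoters of the genes themselves. RefSeq promoter windows on GRCh38 (250 bases before to 50 after a transcript start) were matched for 7 of the 10 genes, ETS2, ERG, ELF1, ELF4, SPIB, ETV6 and GABPA, with 15 windows in all. No window was matched for ETS1, FLI1 and SPI1. The 8-base site CCGGAAGT, the form bound strongly by GABP and ETS1, was searched on both strands (ACTTCCGG on the other). It lay in 1 of the 15 windows (6.67%), that of GABPA, beside 4.14% of 35116 windows of all genes. The site GAGGAAGT, the form bound by PU.1 (ACTTCCTC on the other strand), also lay in 1 of the 15 windows (6.67%). This was 1 of 2 windows of ETS2, beside 2.59% of all windows. A single match each does not set these genes apart from all genes. Both sites contain the GGAA core, which is in 86.7% of the 15 windows and in 95.5% of all windows and so tells little by itself. The matches are shown in 30 bases of the gene's strand, 5′ to 3′, with the site in capitals, here as its reverse complement. The first lies at chr21:25734894-25734923 and the second at chr21:38805922-38805951, both on the plus strand.
GABPA: acctccgctctACTTCCGGccctggctccg
ETS2: acggcccggttACTTCCTCcagagactgac
The GABPA site begins 67 bases before the annotated start, and the ETS2 site begins 4 bases after one of its starts. A match of letters is a description, and no binding was measured in this study.

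ETS1 was the highest ETS gene of both human lines. Human ETS1 (ENSG00000134954, hg19 chromosome 11, 128328656 to 128457453) stood at 131.6 FPKM (130.2 to 133.0) in Jurkat and at 168 (167 to 170.2) in TALL104. Mouse Ets1 (ENSMUSG00000032035, mm10 chromosome 9, 32636221 to 32757820) stood at 39.3 FPKM (38.5 to 40.0) in EL4 and at 29.5 (28.8 to 30.2) in IVA12. The ratio of TALL104 over Jurkat was 1.28 (1.26 to 1.30), and that of EL4 over IVA12 was 1.33 (1.29 to 1.38). Neither passed 1.5-fold, and in the human pair the CD8-type line was the higher. ETS1, a factor needed for normal T-cell development and survival, lay above 98.1% of the human genes detected in Jurkat and above 79.5% of the mouse genes detected in IVA12.

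ETS2, the paralog of ETS1 that responds to Ras and ERK signalling, differed more. Human ETS2 (ENSG00000157557, hg19 chromosome 21, 40177107 to 40196879) stood at 25.5 FPKM (24.7 to 26.3) in Jurkat and at 5.83 (5.42 to 6.26) in TALL104. Mouse Ets2 (ENSMUSG00000022895, mm10 chromosome 16, 95702075 to 95721051) stood at 17.2 FPKM (16.3 to 18.2) in EL4 and at 7.20 (6.54 to 7.92) in IVA12. ETS2 was the higher in Jurkat by 4.37-fold (4.04 to 4.73) and in EL4 by 2.39-fold (2.15 to 2.68). In the human pair ETS2 and ETS1 thus pointed in opposite directions.

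ELF1 and ELF4, which form one branch of the family, moved together within each pair. Human ELF1 (ENSG00000120690, hg19 chromosome 13, 41506060 to 41635576) stood at 49.0 FPKM (47.9 to 50.2) in Jurkat and at 92.4 (90.7 to 94.1) in TALL104. Human ELF4 (ENSG00000102034, hg19 chromosome X, 129197930 to 129244691) had 9.97 (9.47 to 10.5) and 22.1 (21.3 to 23.0). Both were higher in TALL104, ELF1 by 1.88-fold (1.83 to 1.94) and ELF4, which is known to restrain the cycling of CD8 T cells, by 2.22-fold (2.08 to 2.37). Mouse Elf1 (ENSMUSG00000036461, mm10 chromosome 14, 79481194 to 79582494) stood at 48.2 FPKM (47.1 to 49.4) in EL4 and at 28.0 (26.98 to 28.98) in IVA12. Mouse Elf4 (ENSMUSG00000031103, mm10 chromosome X, 48411046 to 48463132) had 19.8 (19.2 to 20.5) and 4.64 (4.31 to 4.99). Both were higher in the T-cell line, Elf1 by 1.72-fold (1.65 to 1.80) and Elf4 by 4.28-fold (3.95 to 4.64). Elf1 shares 327 exon bases with Wbp4 on the other strand, which had 15.2 FPKM in EL4 and 10.7 in IVA12.

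ETV6, a repressor of the family that is needed for blood stem cells, was, of the genes seen in all 4 lines, the one that was higher in IVA12 than in EL4. Human ETV6 (ENSG00000139083, hg19 chromosome 12, 11802608 to 12048311) stood at 14.2 FPKM (13.7 to 14.7) in Jurkat and at 6.28 (5.94 to 6.63) in TALL104. Mouse Etv6 (ENSMUSG00000030199, mm10 chromosome 6, 134035700 to 134270158) stood at 10.4 FPKM (9.93 to 10.8) in EL4 and at 28.5 (27.7 to 29.4) in IVA12. The ratio was 2.26 (2.12 to 2.41) for Jurkat over TALL104 and 2.75 (2.61 to 2.90) for IVA12 over EL4.

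The lines of a species were then compared over the 10 genes, taking a gene as different where its FPKM + 1 was over 1.5 times that of the other line. In the human pair 4 of 10 differed, ETS2 and ETV6 higher in Jurkat and ELF1 and ELF4 higher in TALL104, against 25.3% of all human genes. Of the 7 genes with at least 1 FPKM in either line the count was again 4, against 62.6% of the human genes at that level, a share near that background. By direction the backgrounds at that level were 34.2% higher in Jurkat and 28.4% higher in TALL104, with 2 ETS genes each. The median log2 ratio of Jurkat over TALL104 was 0.11 over the 10 genes and 0.00 over all human genes. Where both human lines reached 1 FPKM, the median log2 FPKM ratio was also 0.11, which puts FLI1 and GABPA near the middle of the expressed genes.

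Between EL4 and IVA12, 7 of 10 differed. Ets2, Erg, Elf1, Elf4 and Spib were higher in EL4, Spi1 and Etv6 were higher in IVA12, and Ets1, Fli1 and Gabpa lay within 1.5-fold. This stands against 21.0% of all mouse genes. All 10 had at least 1 FPKM in either line, and 50.3% of the mouse genes at that level differed, 23.8% higher in EL4 and 26.5% in IVA12. Their median log2 ratio of EL4 over IVA12 was 0.56, beside 0.00 for all mouse genes and -0.04 for those that reached 1 FPKM in EL4 or IVA12. The pairs ask different questions, leukaemias of CD4 and CD8 type in human and a T lymphoma with a B hybridoma in mouse, so a gene's direction in one pair has no counterpart in the other.

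**Figure D2:**
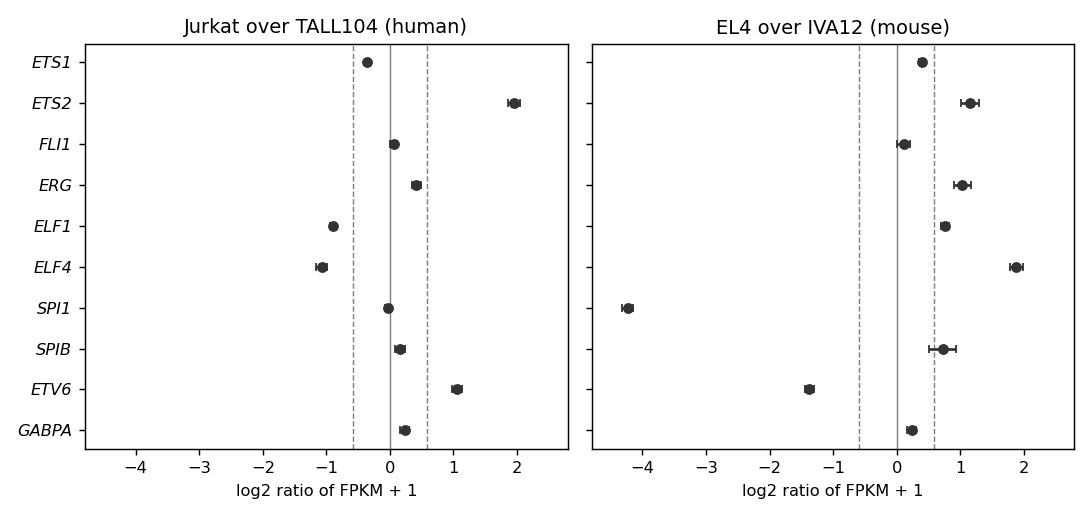
Log2 ratio of FPKM + 1 for each ETS gene, with dashed lines at 1.5-fold. The left side shows Jurkat over TALL104 and the right side EL4 over IVA12. Bars give an approximate 95% counting range, to which a library with no read adds no width. In the human pair 4 genes lie outside the dashed lines and in the mouse pair 7, with Spi1 at -4.24.

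The order of the genes within a library also differed. In Jurkat it ran ETS1, ELF1, ETS2, FLI1, GABPA, ETV6, ELF4, ERG, SPIB and SPI1, and FLI1 and GABPA did not differ beyond their counting intervals. In TALL104 ELF4 moved up to the third place, ETV6 and ETS2 could not be ranked against each other, and neither could SPI1, SPIB and ERG at the bottom. In EL4 Elf1 led ahead of Ets1, and the neighbours Elf4 and Gabpa and the neighbours Ets2 and Fli1 overlapped. In IVA12 Ets1 at 29.5, Etv6 at 28.5 and Elf1 at 28.0 FPKM were level, each overlapping its neighbour, followed by Spi1. The human lines were thus led by one gene and IVA12 by 3 genes of like level.

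Summed over the 10 genes, the FPKM was 268 (Jurkat) and 328 (TALL104) in human and 174 (EL4) and 148 (IVA12) in mouse. ETS1 and ETS2 held 58.7% of the sum in Jurkat and 53.0% in TALL104, but 32.5% in EL4 and 24.8% in IVA12. ELF1 and ELF4 held 22.0% in both Jurkat and IVA12, 34.9% in TALL104 and 39.1% in EL4. In IVA12 Etv6 took 19.3% of the sum, against 1.91% to 5.96% in the T-cell lines. Gene models differ between the species, so sums of human and mouse lines are set side by side and were not compared.

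**Figure D3:**
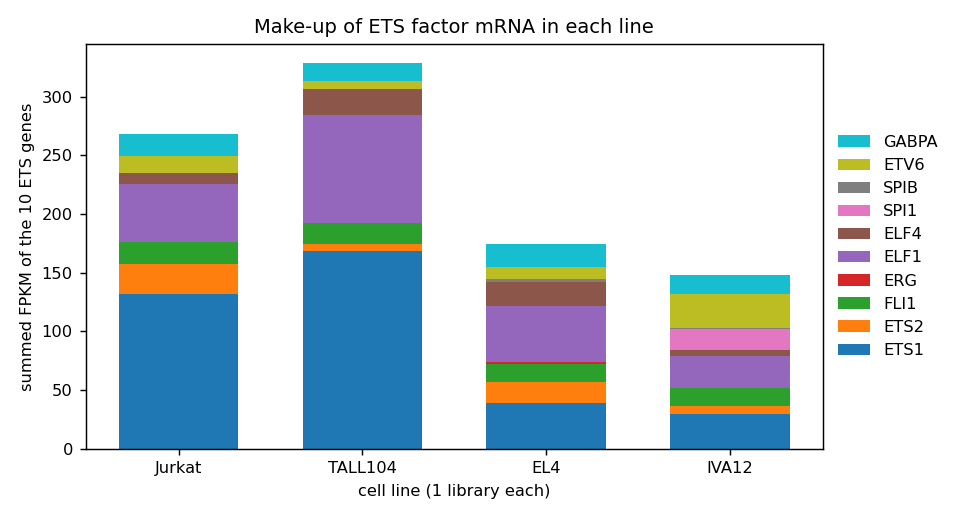
Summed FPKM of the 10 ETS genes in each line, stacked by gene, 1 library per line. ETS1 is the tallest segment in Jurkat (49.1% of the sum) and in TALL104 (51.3%), and the SPI1 segment is visible in IVA12 alone.

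SPI1 and ETS1 had the widest range over the 4 lines. For ETS1 this range of 2.47 lay between the human and the mouse lines, whose gene models differ, since within the pairs its log2 ratios were -0.35 and 0.40. Genes of like pattern were sought among 15550 genes whose symbol is shared by and unique in both species. The measure was the Euclidean distance of log2(FPKM + 1) over the 4 libraries. Nearest to SPI1 were BARX2, a homeobox gene, at a distance of 0.03, PLA2G5, a secreted phospholipase, at 0.04 and RPS6KA6, a ribosomal S6 kinase, at 0.06. Each had 17.6 to 18.8 FPKM in IVA12 and under 0.02 in the other lines. Nearest to ETS1 were MYH9, a non-muscle myosin, at 0.60, FLNA, an actin crosslinker, at 0.77 and MAPRE1, a microtubule-binding protein, at 0.83. With 4 points the likeness is one of level in these libraries.

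The rest of the family was read from 18 further ETS genes in human and the 16 of them found in mouse. In human 6 of 18 reached 1 FPKM in Jurkat and 6 in TALL104, near the 33.2% and 33.1% of all human genes. The highest were ELK4 at 11.7 FPKM in Jurkat and 19.5 in TALL104, ETV3, a repressor, at 6.06 and 16.4, and ELK1 at 14.9 and 11.0. ELK3 had 3.62 and 8.01 FPKM. ELK1, ELK3 and ELK4 are the ternary complex factors that bind with SRF. ETV3, ELK3 and ELK4 were more than 1.5-fold higher in TALL104 and no gene of the list was higher in Jurkat, against 11.4% and 13.8% of all human genes. Of the 6 genes with at least 1 FPKM in either line, the counts were again 3 and 0. The backgrounds at that level were 28.4% and 34.2%. The list's median log2 ratio was 0.00, as for all human genes, since most of its genes were near 0 in both lines.

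In mouse, 8 of 16 further genes reached 1 FPKM in EL4 and 6 in IVA12. The shares of all mouse genes were 34.3% and 35.0%, so the count in IVA12 was near the background. Of the 16, 5 were higher in EL4 and 2 in IVA12, against 9.75% and 11.2% of all mouse genes, the latter near the background. Of the 9 genes with at least 1 FPKM in either line, 4 were higher in EL4 and 2 in IVA12. The backgrounds at that level were 23.8% and 26.5%. Etv5, of the PEA3 group that follows ERK signalling, stood at 18.2 FPKM (17.5 to 19.0) in EL4 and at 0.867 (0.698 to 1.07) in IVA12, a ratio of 21.0 (17.0 to 26.2). Elk3 had 18.1 FPKM in EL4 and 0.947 in IVA12, a ratio of 19.1 (15.7 to 23.3), and Etv3 had 13.0 and 5.60. Toward IVA12, Elk4 had 11.7 FPKM in EL4 and 27.1 in IVA12. Elf3, known as a factor of epithelial cells, had 12.1 FPKM in IVA12 (11.2 to 13.1) and 1 read in EL4, a ratio of 863 (154 to 34147). With Spi1, Elf3 was thus the second ETS gene that IVA12 held and EL4 did not. The list's median log2 ratio was 0.06, and 0.09 with genes listed at 0 in one line placed at their bound of 3 reads.

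**Figure D4:**
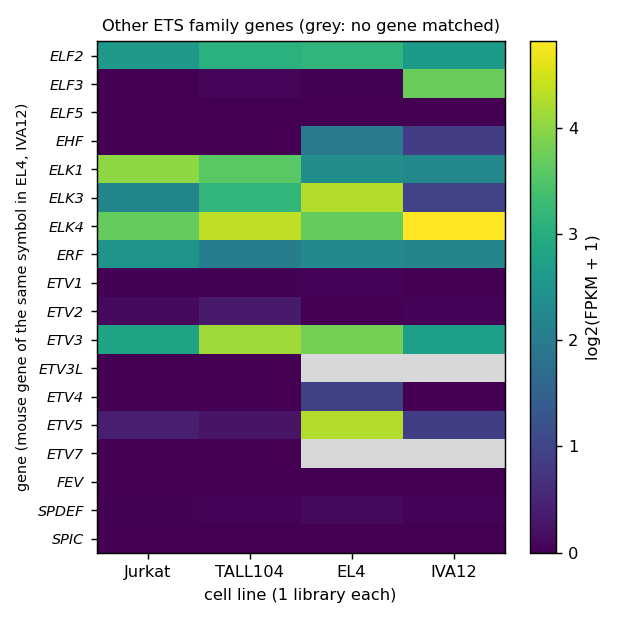
Level of the further ETS family genes as log2(FPKM + 1) in the 4 lines, 1 library each, with grey where no mouse gene was matched. ETV5 and ELK3 are bright in EL4, and ELF3 is bright in IVA12 alone.

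ETS factors bind with other proteins, and 14 partner genes were read, among them RUNX factors and their subunit CBFB, which bind beside ETS1, MYB, and the IRF factors that pair with PU.1 and Spi-B. In the human pair 7 of 14 were higher in Jurkat and 1 in TALL104, against 13.8% and 11.4% of all human genes, with a median log2 ratio of 0.34. At 1 FPKM in either line, which 10 of the 14 reached, the backgrounds were 34.2% and 28.4%. IRF8, at 0.947 FPKM in Jurkat and 0.260 in TALL104, was among the 7 and not among these 10. MYB had 88.8 FPKM in Jurkat and 0.508 in TALL104, a ratio of 175 (140.2 to 221). RUNX1 had 36.1 and 6.60 FPKM, a ratio of 5.46 (5.25 to 5.68), and RUNX3, the RUNX factor of CD8 T cells, had 5.04 and 21.5, a ratio of TALL104 over Jurkat of 4.27 (3.95 to 4.63). CBFB had 52.4 FPKM in Jurkat and 26.2 in TALL104. The RUNX partner of ETS1 that led was therefore RUNX1 in Jurkat and RUNX3 in TALL104. Runx3 also led in EL4, taken as a CD4 T cell, at 14.1 FPKM, with Runx2 at 6.15 and Runx1 at 3.36. In IVA12 Runx3 led as well, at 1.86 FPKM.

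In the mouse pair 8 of 14 partners were higher in EL4 and 2 in IVA12, with a median log2 ratio of 0.90. The backgrounds were 9.75% and 11.2% of all mouse genes. At 1 FPKM in either line, which 11 of the 14 reached, they were 23.8% and 26.5%. Irf8, at 0.970 FPKM in EL4, was among the 8 and not among these 11. Irf4, the partner of PU.1 in B cells and plasma cells, stood at 9.73 FPKM (9.24 to 10.2) in EL4 and at 151 (149 to 153) in IVA12, a ratio of 15.5 (14.7 to 16.4). Irf8 had 1 read in IVA12. IVA12 therefore held Spi1 with Irf4 and almost no Irf8. Myb had 64.2 FPKM in EL4 and 7.80 in IVA12, Runx2 had 6.15 and 0.0313, and Cbfb had 66.5 and 31.1.

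The list of 12 genes known as PU.1 or Spi-B targets in myeloid and B cells was set beside SPI1. In the mouse pair, 3 were higher in IVA12, Blnk, Lyn and Cybb, and 1 in EL4, Fcer1g. The backgrounds were 11.2% and 9.75% of all mouse genes, so the 1 gene of 12 in EL4 was near the background. At 1 FPKM in either line, which only these 4 of the 12 reached, the backgrounds were 26.5% and 23.8%. Blnk, an adaptor of the B-cell receptor, had 0.0312 FPKM in EL4 and 39.6 in IVA12, a ratio of 1272 (584 to 3468). Lyn, a Src-family kinase of B and myeloid cells, had 8.34 FPKM in IVA12 and no read in EL4, at least 364-fold higher. Fcer1g, a signalling chain shared by Fc receptors, had 23.6 FPKM in EL4 and no read in IVA12, at least 174-fold higher in EL4. The list thus split, and Csf1r and Csf2ra, PU.1 targets of myeloid cells, were listed at 0 in both mouse lines. Its median log2 ratio of EL4 over IVA12 was -0.13, and -0.29 with genes at 0 in one line placed at their bound.

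In the human pair, 4 of the 12 targets were higher in TALL104 and 0 in Jurkat, beside the single SPI1 read of TALL104. The backgrounds were 11.4% and 13.8% of all human genes. At 1 FPKM in either line, which 5 of the 12 reached, these 4 among them, the backgrounds were 28.4% and 34.2%. FCER1G had 0.298 FPKM in Jurkat and 94.5 in TALL104, a ratio of 317 (172 to 662). TYROBP, a signalling adaptor of natural killer and myeloid receptors, had 0.0317 and 34.0 FPKM, and LYN had 0.00846 and 23.8, each with 1 read in Jurkat. The fourth was ITGAM. The median log2 ratio of the list was -0.07, and -0.63 with genes at 0 in one line placed at their bound. The 6 myeloid markers summed to 0.391 FPKM in Jurkat and 10.4 in TALL104, of which ADGRE1 had 8.79 in TALL104. CSF1R was at 0 in both human lines, and CD14 and MPO were at 3 reads or fewer. The part of these levels in the result was not tested.

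**Figure D5:**
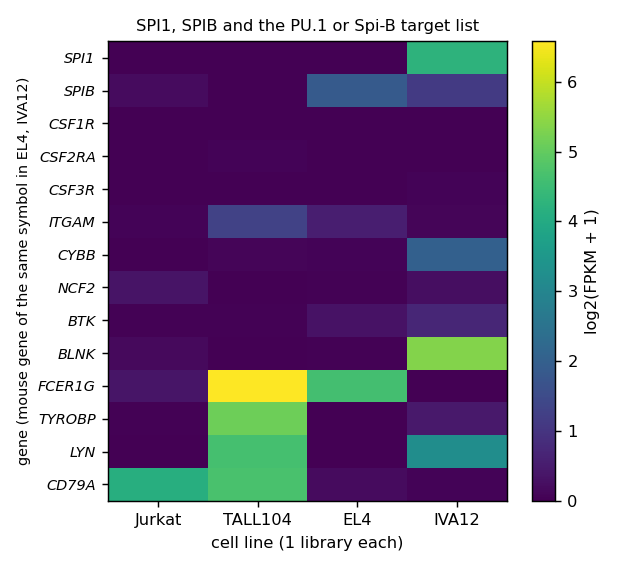
Level of SPI1, SPIB and 12 PU.1 or Spi-B target genes as log2(FPKM + 1) in the 4 lines, 1 library each. BLNK and LYN are bright in IVA12 beside SPI1, and FCER1G, TYROBP and LYN in TALL104, where SPI1 had 1 read.

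The last list held 8 T-lineage genes with described ETS sites. In the mouse pair 4 of 8 were higher in EL4, against 9.75% of all mouse genes. In IVA12 1 was higher, near the background of 11.2%. At 1 FPKM in either line, which 3 of the 8 reached, the backgrounds were 23.8% and 26.5%. Prf1, the gene higher in IVA12, had 0.674 FPKM there and was not among these 3. Il2ra, among the 4 of EL4 at 0.779 FPKM, was also below that level. The median log2 ratio was 0.60, and 1.45 with genes at 0 in one line placed at their bound. Lck, the kinase that starts T-cell receptor signalling, had 96.5 FPKM in EL4 and 0.527 in IVA12, a ratio of 183 (134 to 258). Il7r, a gene known to be bound by GABP in T cells, had 42.0 FPKM in EL4 and 1 read in IVA12, beside Gabpa within 1.5-fold. Cd247, whose promoter is bound by ELF1, had 5.98 and 0.200 FPKM, a ratio of 29.8 (20.4 to 45.5), beside 1.72 for Elf1 itself. In the human pair 1 of 8 was higher in Jurkat, near the background of 13.8% of all human genes, and 4 in TALL104, against 11.4% (34.2% and 28.4% at 1 FPKM, which 7 of the 8 reached), with a median of -2.10. IL2RB, a gene bound by ETS1 and GABP, had 0.911 FPKM in Jurkat and 104 in TALL104, and PRF1, a perforin gene that ELF4 activates in natural killer cells, had 3.35 and 204. The ratio of PRF1 was 61.0 (54.4 to 68.7), beside 2.22 for ELF4. IL2RA, bound by ELF1, had a ratio of 277 (146 to 607), beside 1.88 for ELF1. TALL104 was grown with interleukin-2 and Jurkat was not, and this cannot be told apart from the line.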

How the data were processed

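Per the study's methods and the submitters' processing notes, the authors aligned the reads of stranded mRNA libraries with STAR 2.5.1b to a joint hg19 and mm10 reference and counted genes with featureCounts 1.6.3. They deposited FPKM for both species in 1 table, with 0 columns left unused here. Gene lengths and strand setting were not given in the sources used here.

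Reads and library totals were recovered from the steps between FPKM values at a relative tolerance of 1e-12, with lengths of up to 300000 bases. All values above 0 came out whole, and the recovered reads made up 98.0% to 99.3% of the totals. Of the genes above 0, the recovered length equalled the annotated one in 22.2% in human and 72.8% in mouse. For the others the smallest length giving whole reads was taken, which can undercount reads. They served for intervals alone: exact Poisson intervals for levels and exact conditional binomial intervals for ratios, at 95%. With 1 library per line no test was made. Ratios and calls used FPKM + 1 and 1.5-fold. Symbols and positions came from GENCODE 44 on GRCh37 and M21 on GRCm38, by gene identifier. A gene listed at 0 was bounded at 3 reads per library.

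The genes, lists, the rule for naming genes and the alternatives were chosen with earlier results of these data known. The rule named the 10 ETS genes, in each pair the 4 highest and 3 most different further family genes, the 3 most different genes of each other list, and CBFB, GABPB1 and GABPB2. Some genes of the lists are not reported here and were left out of their counts and medians. Genes used to fill a count of 5 or fewer, and Runx1 and Runx3 in the mouse lines, were named after their values were seen. Alternatives were the pseudocount, library scaling, a filter at 1 FPKM, a 2-fold threshold and other detection levels. The calculation was tested on simulated data. Python 3.11.15, NumPy 2.4.6, pandas 2.3.3, SciPy 1.17.1 and matplotlib 3.10.9 were used.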

Additional observations from a re-analysis of the deposited data

Results flagged for a closer look

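Reads were aligned to both genomes at once, so each library also has values for the ETS genes of the other species, which enter no comparison above. Summed over the 10 genes, mouse ETS values stood for 16 reads in Jurkat and 18 in TALL104. Human ETS values stood for 26 reads in EL4 and 52 in IVA12. As a share of the library's ETS reads the sums were 0.0274% and 0.0315% in the human lines (Jurkat, TALL104). In the mouse lines (EL4, IVA12) they were 0.0857% and 0.262%. The bound of 3 reads for a count of 0 holds for a single gene. It was passed by 1 of the 10 genes in each human line, by 2 in EL4 and by 3 in IVA12. ETS1 held the most, with 9 reads on mouse Ets1 in Jurkat, 11 in TALL104, and 18 and 28 reads on human ETS1 in EL4 and IVA12. The highest value was 0.155 FPKM for human ETS1 in IVA12. The levels that rest on 1 or 2 reads, SPI1 and SPIB in TALL104 and Spi1 in EL4, are of the same size as these values. The source of the reads was not tested, and no library serves as a control for them.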

How the results depend on the processing

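No paired analysis was possible because each line had 1 library, and no library could be left out. Of the 10 ETS genes, all those past 1.5-fold kept their direction under all pseudocounts and scalings tried. Counts moved with the pseudocount, which decides the weight of genes near 0: at 0.01 FPKM the ETS genes more than 1.5-fold apart between Jurkat and TALL104 rose from 4 to 7 (ERG, SPI1 and SPIB joined; at 0.1 FPKM it was 6, and 5 under both rescalings to a fixed sum), the further family genes from 3 to 11 in the human pair and from 7 to 11 in the mouse pair. The 3 further family genes became 5 without mitochondrially encoded genes in the scaling and 1 at a 2-fold threshold. The other 47 counts and medians stayed within 1.5 times or within their counting spread. Of the single-gene log2 ratios, 53 moved by less than their counting spread and 47 by more. FLI1 alone of the ETS genes changed sign, from 0.06 to -0.05 (log2, Jurkat over TALL104). SPI1, SPIB and ERG had few or no reads in at least 1 line, which limits the size that can be given for their ratios. Culture-to-culture variation is unknown.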

Other observations

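Several ETS factors are phosphorylated through ERK, and a list of 10 genes known for feedback on this pathway or induction by it was read beside ETV4, ETV5 and ETS2. In the human pair 5 of 10 were higher in TALL104 and 2 in Jurkat, against 11.4% and 13.8% of all human genes. At 1 FPKM in either line, which 8 of the 10 reached, the counts were again 5 and 2, against 28.4% and 34.2%. DUSP6, a phosphatase of ERK, had 0.354 FPKM in Jurkat and 32.3 in TALL104, PHLDA1 had 0.303 and 22.1, and DUSP4 had 0.0119 and 6.45. ETS2 lay the other way, at 25.5 FPKM in Jurkat and 5.83 in TALL104, and ETV5 was low in both, at 0.322 and 0.188. In the mouse pair 5 of 10 were higher in EL4 and 2 in IVA12, against 9.75% and 11.2% of all mouse genes. At 1 FPKM in either line, which 7 of the 10 reached, the backgrounds were 23.8% and 26.5%. Spry1, at 0.735 FPKM in IVA12 and listed at 0 in EL4, was among the 2 and below that level. Spred2 had 8.01 FPKM in EL4 and 1 read in IVA12, Dusp6 had 9.83 and 0.537, and Dusp4 had 11.0 and was listed at 0 in IVA12. Etv5 at 18.2 and Etv4 at 0.922 FPKM in EL4 lay the same way, and Etv4 was listed at 0 in IVA12. The median log2 ratio of the list was -0.77 (Jurkat over TALL104) and 0.54 (EL4 over IVA12), beside 0.00 for all genes of either species.

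The megakaryocyte or erythroid markers GATA1, ITGA2B, PF4 and KLF1, read because FLI1 and ERG are also used in that lineage, summed to 0.431 and 0.0539 FPKM in Jurkat and TALL104 and to 0.314 and 0.573 FPKM in EL4 and IVA12. None of the 4 reached 1 FPKM in any line.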
